A study of Arabidopsis thaliana with 42 samples.

Results

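The 4 genes of nitrate transport followed here were NRT2.1 (AT1G08090), NRT1.1 (AT1G12110), NRT1.5 (AT1G32450) and NRT2.5 (AT1G12940). Each was read from 1 probe set. They were chosen by name, as 4 of the 22746 probe sets other than controls on the ATH1 array, and all lie on chromosome 1. The study compared whole roots of 7 Arabidopsis thaliana accessions (Kas-2, NFA-8, Sq-8, Tamm-27, Ts-5, Var2-1 and Col-0), each after KNO3 or KCl had been added to 5 mM for 2 h, with 3 biological replicates for each of the 14 groups and 42 arrays in all. Every seedling was 12 days old and had been grown hydroponically, with 0.5 mM ammonium succinate as the only nitrogen and with 3 mM sucrose, so nitrate first reached them with the KNO3. No transgene or mutant was involved, but the array was designed on Col-0, and each array holds the RNA of all root cell types together.

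Plants take up nitrate from the soil with a low-affinity and a high-affinity system. NRT1.1 is a plasma membrane transporter that works in both ranges and also senses nitrate, NRT2.1 is the main high-affinity uptake transporter of the root, and NRT2.5 is a high-affinity transporter known from long nitrogen starvation. NRT1.5 works after uptake, where it loads nitrate into the root xylem for transport to the shoot. NRT2.1 and NRT1.1 are textbook nitrate-induced genes, whereas NRT2.5 is known as repressed by nitrate.

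All values are MAS5 signals, a linear intensity that summarises the 11 elements of a probe set, and tests were made with limma on log2(signal + 1) with p-values adjusted over all 22746 probe sets and a threshold of 0.1. The median signal of an array was 97.8 at the lowest and 157.75 at the highest, and the share of probe sets that reached 100, taken here as the detection cutoff, ran from 49.5% to 62.5%. The mean log2 ratio of 3′ over 5′ signal of the GAPDH and ubiquitin controls, a measure of RNA integrity, was -0.06 to 1.64 in 24 arrays and 2.4 to 4.23 in the other 18, with all Col-0 arrays on the low side and 5 of the 6 Kas-2 arrays on the high side. Of the root markers with a named probe set (2 of 11), PYK10 was at 2057.6 or more in all arrays and EXPA7 had a median of 91.15. Of the shoot photosynthesis markers (3 of 10 named), the summed signal was 210.5 to 28136.2 in the 21 KNO3 arrays and 124.3 to 4985.7 in the 21 KCl arrays, and the highest value, in Var2-1 KNO3 replicate 1, lay far above all others. Sq-8 KNO3 replicate 1 and Sq-8 KCl replicate 3 had median correlations with the other arrays of only 0.668 and 0.669.

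**Figure D1:**
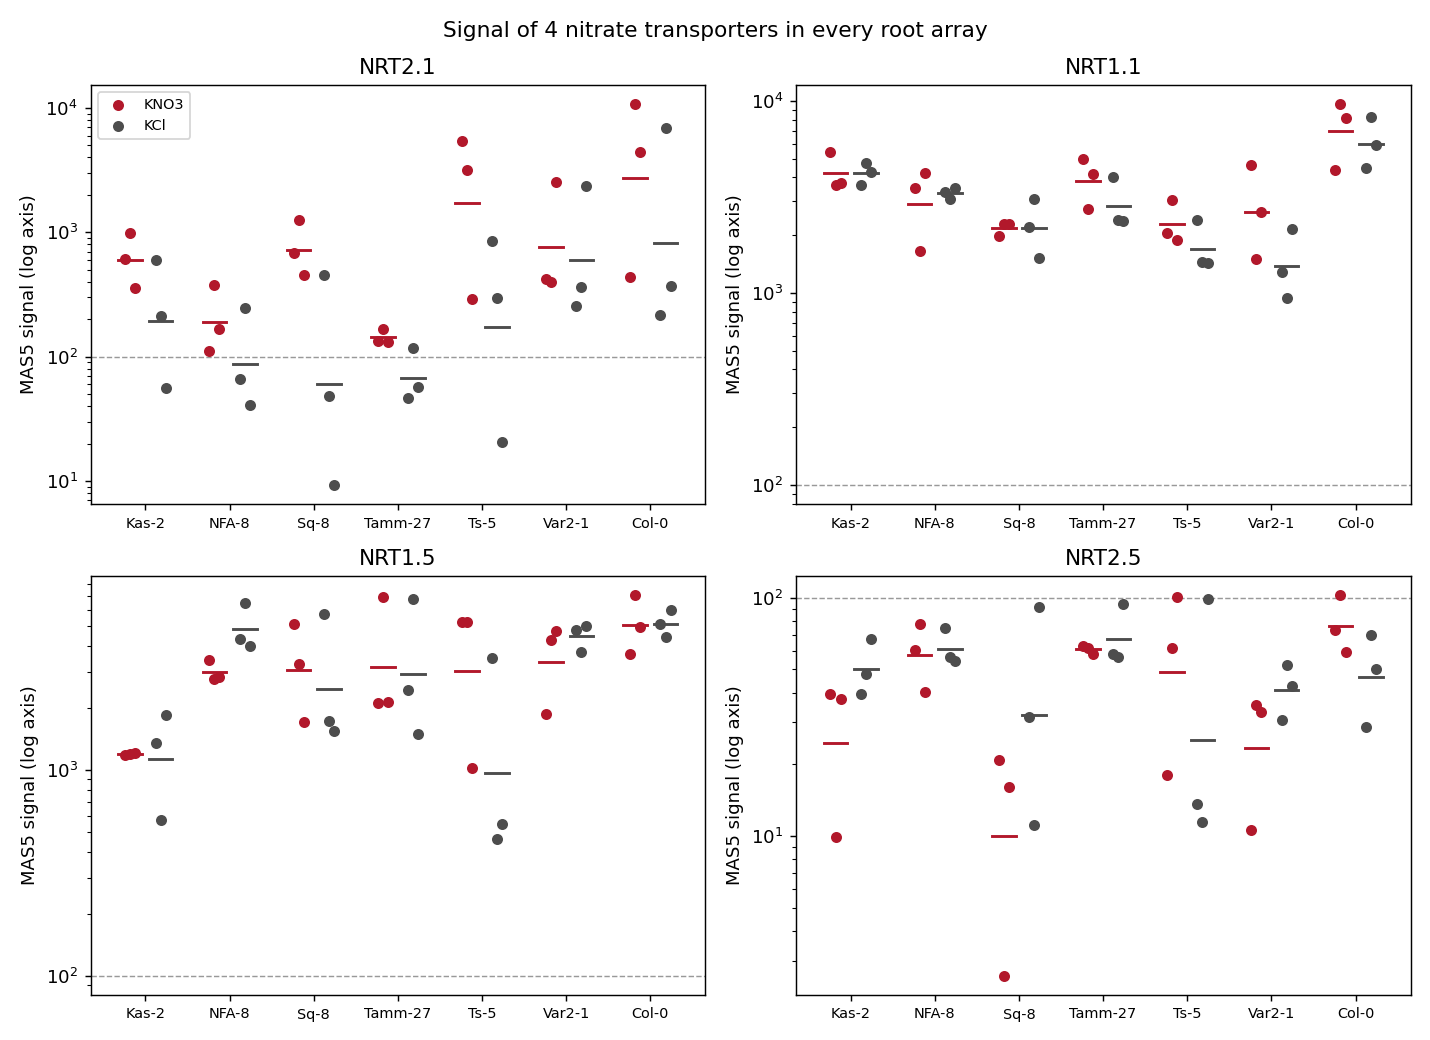
MAS5 signal (log axis) of NRT2.1, NRT1.1, NRT1.5 and NRT2.5 in each array by accession, with KNO3 (red) left of KCl (grey). Short lines are geometric means of 3 arrays and the dashed line is a signal of 100. NRT2.1 spans 9.3 to 10752.2 and NRT2.5 stays at 102.8 or below.

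NRT2.1 had the highest averaged response of the 4 genes, and its mean was higher after KNO3 in 7 of 7 accessions. Across the 21 KNO3 arrays its signal ran from 111.9 to 10752.2 with a median of 436.3, against 9.3 to 6932.1 with a median of 217.4 in the 21 KCl arrays. Averaged over accessions the log2 difference of KNO3 minus KCl was 1.82 (SE 0.49), a 3.53-fold higher signal, and 99.991% of the probe sets had a lower averaged response. The unadjusted p was 0.00076, but the adjusted p of 0.144 did not pass the threshold, so NRT2.1 was not called. Between arrays that carry the same replicate number, NRT2.1 was higher after KNO3 in 21 of 21 cases, as in only 2 of the 22746 probe sets; this count was made after its values were seen, and the test does not use the numbers. In this comparison 0.339% of all probe sets were called (77, of which 39 were higher and 38 lower after KNO3), and 0 of the 4 transporters were. In bulk roots, fewer cells of a type and less RNA per cell cannot be told apart.

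The values of NRT2.1 differed widely within groups. In Col-0 the signal was 436.3, 10752.2 and 4405.6 in the KNO3 arrays, against 217.4, 6932.1 and 367 in the KCl arrays. The groups overlapped there through KCl replicate 2, which exceeded 2 of the 3 KNO3 arrays. In Ts-5 it was 5391, 3190.5 and 292.3 after KNO3, against 847.8, 295.9 and 20.6 after KCl. In Sq-8 it was 677, 1248.3 and 454.9 after KNO3, against 455.3, 48.1 and 9.3 after KCl. These accessions had the largest own responses, 3.29 in Ts-5 and 3.57 in Sq-8 on the log2 scale (SE 1.31 each), and in both a single array joined the ranges of the treatments. The ranges in Sq-8 met at 454.9 and 455.3, and without KCl replicate 1 its response was 5.02 and passed the threshold (adjusted p = 0.0661), whereas the adjusted p was 0.288 with all arrays. Without KCl replicate 3, an array of low correlation, it was 2.28. The Ts-5 response was 1.77 without KCl replicate 3 and 4.56 without KNO3 replicate 3.

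In Kas-2, NRT2.1 was at 613.5, 984.7 and 357.4 after KNO3, against 598.8, 213.1 and 56.3 after KCl. In NFA-8 the signals were 111.9, 374.2 and 167.4 after KNO3, against 66.4, 246.6 and 41 after KCl. The KNO3 group stood above the KCl group on average in both, but the highest KCl array lay within the range of the KNO3 arrays. In Tamm-27 it was 133.3, 167.9 and 131.4 after KNO3, against 46.8, 118.1 and 56.6 after KCl. Tamm-27 was the only accession in which no KCl array reached a KNO3 array, although its own response of 1.07 (SE 1.31) was among the smaller ones. In Var2-1, with 425.3, 400.5 and 2552 after KNO3, against 255.1, 362.1 and 2357 after KCl, replicate 3 was high in both treatments and the response was 0.33 (SE 1.31). Over all probe sets and accessions, KNO3 arrays lay wholly above KCl arrays in 5.67% of cases.

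The spread of NRT2.1 between replicates was large for this array type. Its SD within groups was 1.8 on the log2 scale, against a median of 0.80 over all probe sets, and 99.5% of probe sets had a smaller one. Of the 42 arrays, 34 had a signal of at least 100. The response was past the threshold when array weights were used (2.19, adjusted p = 0.0119), the lowest adjusted p of the 15 other settings in which NRT2.1 had a value, which reached up to 0.993. Leaving out 1 of 7 arrays also took it past the threshold: Col-0 KCl replicate 2 (2.04, adjusted p = 0.0558), Sq-8 KCl replicate 1 (2.03, 0.0585), Col-0 KNO3 replicate 1 (2.01, 0.0646), Ts-5 KNO3 replicate 3 (2.00, 0.0734), Ts-5 KCl replicate 1 (1.98, 0.0788), Var2-1 KCl replicate 3 (1.96, 0.0972) or Kas-2 KCl replicate 1 (1.94, 0.0998). The averaged response was 1.53 when only arrays with little 3′ excess were fitted (Sq-8, Var2-1, NFA-8 and Col-0) and 2.65 when only those with a large one were (Kas-2, Tamm-27 and Ts-5), a division chosen after the data were seen. With actin among the controls, as first planned, it was 1.69 and 1.85. The adjacent gene NRT2.2 (AT1G08100) is a close copy of NRT2.1, and whether its RNA adds to this signal was not tested.

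NRT1.1 was high in all 42 arrays, at 946.4 or more, and changed little with nitrate. Its signal was 1501.2 to 9642 (median 3539.4) in KNO3 arrays and 946.4 to 8228.3 (median 3083.2) in KCl arrays. The averaged difference was 0.26 on the log2 scale (SE 0.15, 1.2-fold), positive in 6 of 7 accessions and not past the threshold (adjusted p = 0.727). The treatments overlapped in every accession. The largest own response was in Var2-1, where NRT1.1 was at 4629.9, 1501.2 and 2625.9 after KNO3, against 1294, 946.4 and 2147.3 after KCl. That difference of 0.93 (SE 0.39, adjusted p = 1.00) was 0.52 without KNO3 replicate 1, the array with the high shoot marker signal, whose part in the result was otherwise not tested. It was called with array weights (1.05, adjusted p = 0.00529).

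NRT1.5 showed no shared response. Its averaged difference was 0.15 (SE 0.24, adjusted p = 0.949), with 4 accessions higher and 3 lower after KNO3. In Ts-5 the signal was 5211.5, 5223.9 and 1018.6 after KNO3, against 3511.3, 464 and 547.2 after KCl. This own response of 1.65 (SE 0.64, adjusted p = 0.281) lay in KNO3 replicates 1 and 2. It passed the threshold without KCl replicate 1 (2.58, adjusted p = 0.0562) or without KNO3 replicate 3 (2.44, adjusted p = 0.0791). The 3 arrays of lowest correlation hold KCl replicate 1 as their only Ts-5 array, and without them the response was again 2.58 (adjusted p = 0.0375). KNO3 replicates 1 and 2 had shoot marker sums of 6267.9 and 2291.9, against 765.5 in KNO3 replicate 3 and 304.7 to 1189.3 after KCl. Their log2 3′ to 5′ ratios were 2.65 and 3.30, against -0.06 in KNO3 replicate 3 and 0.10 to 2.66 after KCl. The part of either in the result was not tested. Ts-5 KCl replicate 1 was also the array with the highest NRT2.1 of that group. In NFA-8 the order was the opposite, with 3406.9, 2770.9 and 2822.1 after KNO3, against 4326.3, 6465.4 and 4005.5 after KCl. No KNO3 array of NFA-8 reached a KCl array, but the difference of -0.69 (SE 0.64, adjusted p = 1.00) was not called. In Tamm-27 replicate 2 was far above the others in both treatments, at 6912.1 after KNO3 and 6788.8 after KCl, against 2118.2 and 2145.5 after KNO3 and 2457.1 and 1496.8 after KCl.

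NRT2.5 stayed near background. Its signal was 2.6 to 102.8 (median 40.2) in KNO3 arrays and 11.1 to 98.9 (median 52) in KCl arrays, and only 2 of 42 arrays, both from KNO3 roots (Col-0 and Ts-5), reached 100. The averaged difference was -0.28 (SE 0.29, adjusted p = 0.874), with 2 accessions higher and 5 lower after KNO3. In Kas-2 the signal was 39.3, 9.9 and 37.6 after KNO3, against 39.4, 48 and 67.3 after KCl. All 3 KNO3 arrays lay below the KCl arrays there, though the nearest were only 0.1 apart. In Sq-8 it was 20.8, 2.6 and 16.1 after KNO3, against 31.7, 11.1 and 91.4 after KCl. The log2 difference of -1.59 (SE 0.76, adjusted p = 0.430) rested on groups that included 2.6 and 91.4. With 1 array left out it ran from -2.32 without KCl replicate 2 to -0.78 without KNO3 replicate 2, the array at 2.6. At such signals a difference in log2 can come from a few units of intensity.

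**Figure D2:**
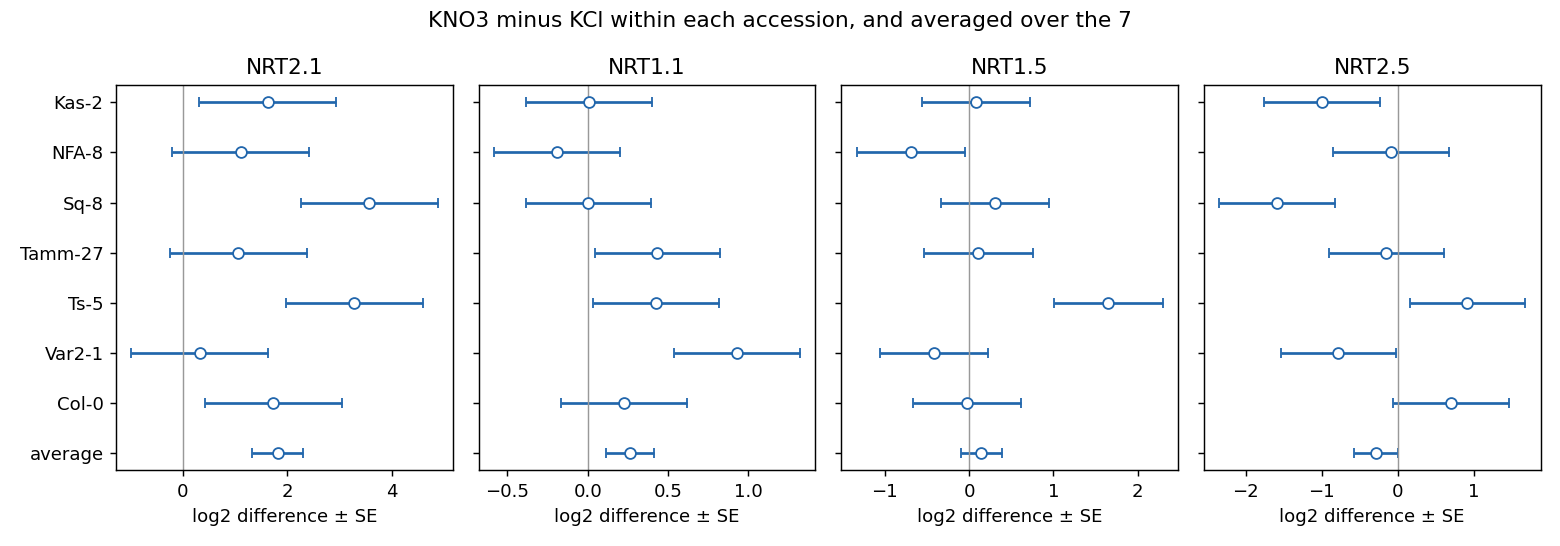
Log2 difference of KNO3 minus KCl (points, with SE as bars, 3 arrays against 3) for each accession and for their average, by gene, with a separate axis range per gene. All points are open because none had an adjusted p under 0.1. NRT2.1 lies right of 0 in 7 of 7 accessions.

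Of all 28 own responses of the 4 genes, 19 were positive, 5 had an unadjusted p below 0.05 and 0 were called. The share of all probe sets called in an accession was 0.361% in Kas-2, 0.0132% in NFA-8, 0.312% in Sq-8, 0.0747% in Tamm-27, 0.774% in Ts-5, 0% in Var2-1 and 0% in Col-0, where 733 and 495 probe sets had an unadjusted p below 0.05. Of the 28 gene and accession pairs, KNO3 arrays lay wholly above KCl arrays in 1 (NRT2.1 in Tamm-27) and wholly below in 2 (NRT1.5 in NFA-8 and NRT2.5 in Kas-2), against 5.67% above and 5.11% below over all probe sets. Whether the response differed between accessions was tested by the interaction of nitrogen and accession, in which 0 of the 4 genes were called (adjusted p = 1.00 for each, unadjusted p between 0.233 and 0.554) and 0.110% of all probe sets were. The responses of 3.57 in Sq-8 and 0.33 in Var2-1 for NRT2.1 were therefore not shown to differ.

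The level of all 4 genes differed between accessions by the test, though only weakly for NRT2.5. In the test of accession differences with treatments averaged, the adjusted p was 2.77e-05 for NRT1.1, 0.00386 for NRT1.5, 0.00914 for NRT2.1 and 0.0575 for NRT2.5, but 47.7% of all probe sets were called as well. The call of NRT2.5 was lost without replicate 2 of Sq-8, whether after KNO3 (0.139) or after KCl (0.144). Set against Col-0, 11 of 24 accession and gene pairs were called, all of them lower. The share of probe sets called against Col-0, in either direction, was 20.2% for Kas-2, 5.92% for NFA-8, 10.6% for Sq-8, 20.8% for Tamm-27, 21.4% for Ts-5 and 9.92% for Var2-1.

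NRT1.1 was lower than Col-0 in 5 accessions by the test. The log2 difference was -1.76 (SE 0.28) in Var2-1, -1.71 in Ts-5, -1.57 in Sq-8, -1.06 in NFA-8 and -0.97 in Tamm-27, with adjusted p between 4.07e-05 and 0.0188. Every one of the 6 arrays of NFA-8 (1656.4 to 4197.7), Sq-8 (1519 to 3083.2) and Ts-5 (1425.2 to 3067.1) lay below the lowest of the 6 Col-0 arrays (4376.3 to 9642), as did 32 of the 36 arrays of other accessions. Such a gap was seen in 3.99% of accession and probe set pairs. Kas-2, at 3661.2 to 5448.8, differed from Col-0 by -0.62 (adjusted p = 0.130) and was called without Col-0 KNO3 replicate 1 (-0.79, adjusted p = 0.0640), Col-0 KCl replicate 1 (-0.73, 0.0966) or Var2-1 KNO3 replicate 1 (-0.62, 0.0970). No array left out ended any of the 5 calls. In KNO3 roots the order of geometric means from high to low was Col-0 (7385 ± 2712), Kas-2 (4289 ± 1006), Tamm-27, NFA-8, Var2-1, Ts-5 and Sq-8 (2189 ± 185; mean ± SD, n = 3), and the arrays of each neighbouring pair overlapped. In KCl roots the order ran Col-0 (6183 ± 1907), Kas-2 (4215 ± 539), NFA-8 (3328 ± 228), Tamm-27, Sq-8, Ts-5 and Var2-1 (1463 ± 618), and the only neighbours that did not overlap were Kas-2 and NFA-8.

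NRT2.1 was called lower than Col-0 in Tamm-27 (-3.91, SE 0.93, adjusted p = 0.00389), NFA-8 (-3.52, adjusted p = 0.0195) and Sq-8 (-2.83, adjusted p = 0.0570). The 6 Tamm-27 arrays (46.8 to 167.9) all lay below the lowest Col-0 array (217.4), whereas 4 of 6 NFA-8 arrays and 2 of 6 Sq-8 arrays did. The summed shoot marker signal was 1979.1 to 4985.7 in Tamm-27 arrays, against 451.0 to 1963.6 in Col-0 arrays. A large 3′ excess was present in 2 of 3 Tamm-27 arrays of each treatment, but in no Col-0 array. The part of either in the Tamm-27 levels was not tested. The NRT2.1 mean was lower than in Col-0 in all 6 accessions, with -2.14 in Kas-2 (adjusted p = 0.120), -1.45 in Ts-5 (0.299) and -1.15 in Var2-1 (0.542) not past the threshold. Kas-2 crossed it with 6 single arrays left out, with adjusted p down to 0.0458 without Col-0 KNO3 replicate 1. It also did so with array weights (0.0642), without the 3 arrays of lowest correlation (0.0908) and with a replicate block (0.0937). The same held with log2(signal + 16) (0.0970) and with a filter of mean signal 100 (0.0983). In the remaining settings the adjusted p reached up to 0.354. The call in Sq-8 was lost without Col-0 KCl replicate 2 (-2.06, adjusted p = 0.200), Sq-8 KCl replicate 3 (-2.19, 0.197), Col-0 KNO3 replicate 2 (-2.34, 0.161), Col-0 KNO3 replicate 3 (-2.66, 0.124), Sq-8 KNO3 replicate 3 (-2.66, 0.108) or Sq-8 KNO3 replicate 1 (-2.80, 0.107), and without the 3 arrays of lowest correlation (-2.16, 0.246). It was also lost with array weights (-2.36, 0.159), with ordinary variances (0.102) and in arrays with little 3′ excess (0.151 with actin and 0.156 without it). In order, KNO3 roots ran Col-0 (5198 ± 5203), Ts-5 (2958 ± 2557), Var2-1, Sq-8, Kas-2, NFA-8 and Tamm-27 (144.2 ± 20.5), and KCl roots Col-0 (2506 ± 3834), Var2-1, Kas-2, Ts-5, NFA-8, Tamm-27 and Sq-8 (170.9 ± 247) by geometric mean. No neighbours in either order were free of overlap.

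NRT1.5 was set furthest from Col-0 in Kas-2. The signal there was 1180.3, 1189.4 and 1204.1 in KNO3 arrays and 1353.6, 569.2 and 1849.6 in KCl arrays, against 3671.9, 7094.6 and 4945.8 and then 5114.7, 4442.9 and 5950.5 in the KNO3 and KCl arrays of Col-0. All 6 Kas-2 arrays lay below all 6 Col-0 arrays, and the difference was -2.14 (SE 0.45, adjusted p = 0.00140). The 3 KNO3 arrays of Kas-2 also lay below every KNO3 array of NFA-8, the next accession in order, and were the closest set of replicates for this gene (1191 ± 12.0). Kas-2 lost 4 elements of NRT1.5 after KNO3 and 7 after KCl, and their part in this difference was not tested. Most Kas-2 arrays, but no Col-0 array, had a large 3′ excess. With the ratio of GAPDH and ubiquitin as covariate the difference of Kas-2 was -2.59. Ts-5 was called as well (-1.58, adjusted p = 0.0175), with 4 of its 6 arrays below Col-0. After KCl the geometric mean was lower in Ts-5 (963) than in Kas-2 (1125), and their arrays overlapped. Sq-8 (-0.89), Tamm-27 (-0.75), NFA-8 (-0.42) and Var2-1 (-0.39) did not pass the threshold. NRT1.5 was highest in Col-0 under both treatments, at 5237 ± 1730 after KNO3 and 5169 ± 755 after KCl (SD, n = 3 each).

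NRT2.5 reached the cutoff of 100 in only 2 of 42 arrays, so its differences are between signals near background. It differed from Col-0 only in Sq-8 by the test (-1.67, SE 0.54, adjusted p = 0.0538), where 4 of 6 arrays lay below the lowest Col-0 array of 28.7 and where 6 of the 11 elements were discarded after KCl. That call was lost without Col-0 KCl replicate 2 (-1.52, adjusted p = 0.117), Col-0 KNO3 replicate 2 (-1.56, 0.112), replicate 2 of Sq-8, whether after KNO3 (-1.26, 0.140) or after KCl (-1.30, 0.146). The other differences ran from -0.92 in Var2-1 to 0.10 in Tamm-27. By geometric mean, beside which means ± SD are given, the order after KNO3 was Col-0 (78.4 ± 22.4), Tamm-27, NFA-8, Ts-5, Kas-2, Var2-1 and Sq-8 (13.2 ± 9.45), and after KCl it was Tamm-27 (69.3 ± 21.2), NFA-8, Kas-2, Col-0, Var2-1, Sq-8 and Ts-5 (41.3 ± 49.9), with overlap between all neighbours.

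**Figure D3:**
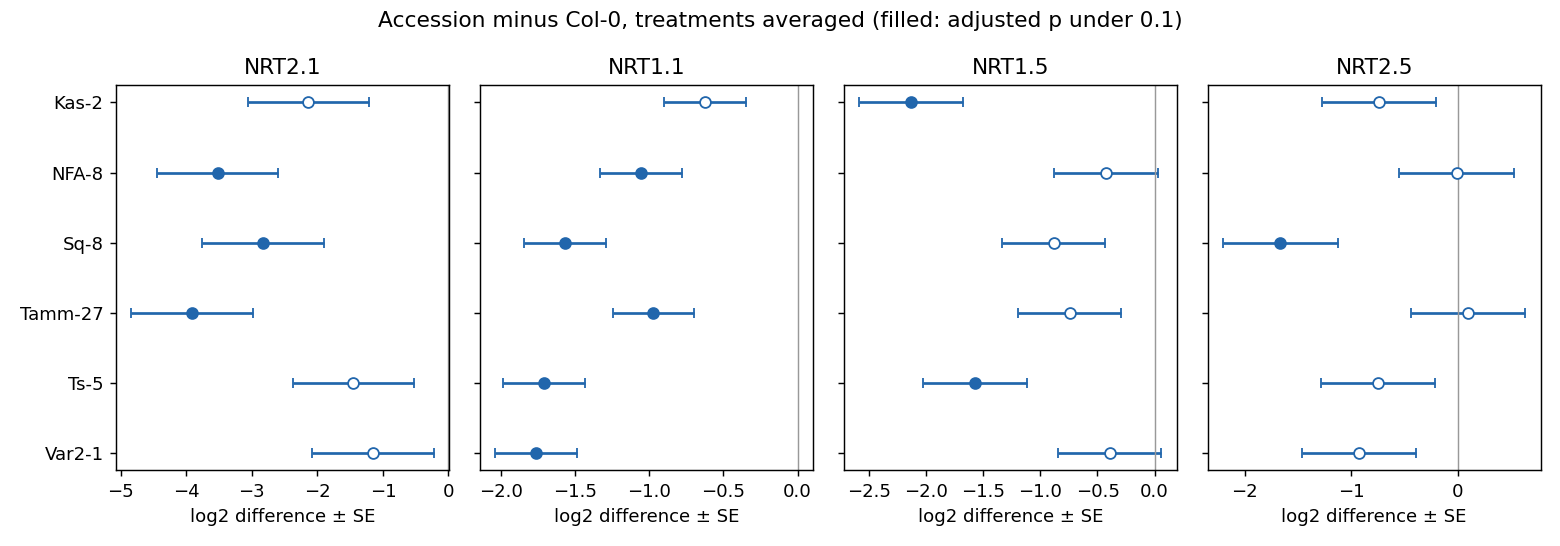
Log2 difference of each accession minus Col-0, treatments averaged (points, with SE as bars, 6 arrays against 6), by gene and with a separate axis range per gene; filled points had an adjusted p under 0.1. NRT1.1 is filled in 5 accessions, NRT2.1 in 3, NRT1.5 in 2 and NRT2.5 in 1.

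Many signals of accessions other than Col-0 were made from fewer elements. The authors discarded elements whose rank within the probe set departed from Col-0, separately for each of 12 accession and treatment groups. NRT1.1 lost 2 to 6 of its 11 elements in every group, 49 in all, and 99.6% of probe sets lost fewer. Elements 4 and 10 of NRT1.1 were discarded in all 12 groups. At least 2 elements shared by all 12 groups were found in 9 of 22746 probe sets, and at least 1 in 211. NRT1.5 lost 1 to 7 elements per group (41 in all, more than 98.7% of probe sets), with element 5 gone in 10 groups and element 4 in 9. NRT2.5 lost none in 8 groups, but 6 in Sq-8 KCl, 7 in Ts-5 KCl, 4 in Ts-5 KNO3 and 2 in Tamm-27 KCl. Col-0 kept all its elements, so the lower NRT1.1 signals outside Col-0 and the loss of elements 4 and 10 ran together. Their part in the level differences was not tested, nor was that of the elements lost by NRT1.5 and NRT2.5.

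For NRT2.1 more elements were discarded in the KNO3 groups than in the KCl groups. The 6 KNO3 groups lost 21 elements in all, against 5 in the 6 KCl groups, and the KNO3 group lost more in all 6 accessions (3 against 0 in Kas-2, 2 against 0 in NFA-8, 4 against 3 in Sq-8, 5 against 0 in Tamm-27, 5 against 2 in Ts-5 and 2 against 0 in Var2-1). Element 5 was discarded in all 6 KNO3 groups and in no KCl group. Over all probe sets a KNO3 group lost 1.38 elements and a KCl group 1.63 on average, 1.45% of probe sets lost more in the KNO3 group of all 6 accessions, and 1.82% had an element lost in all KNO3 and no KCl groups. KNO3 and KCl signals of NRT2.1 within these accessions were thus summaries of different elements. In Col-0, where none was removed, the response was 1.74 (SE 1.31), with 0.75 when KNO3 replicate 2 was left out and 3.28 when KCl replicate 2 was. The other 3 genes did not lose more elements after KNO3 in total. Their totals were 24 against 25 for NRT1.1, 16 against 25 for NRT1.5 and 4 against 15 for NRT2.5. Even so, the discarded sets differed between the treatments in all 6 accessions for NRT1.1 and NRT1.5. For NRT2.5 they differed in Sq-8, Tamm-27 and Ts-5. Only 2.83% of probe set and accession pairs with a discarded element had the same set under both treatments. The part of such differences in the responses was not tested.

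**Figure D4:**
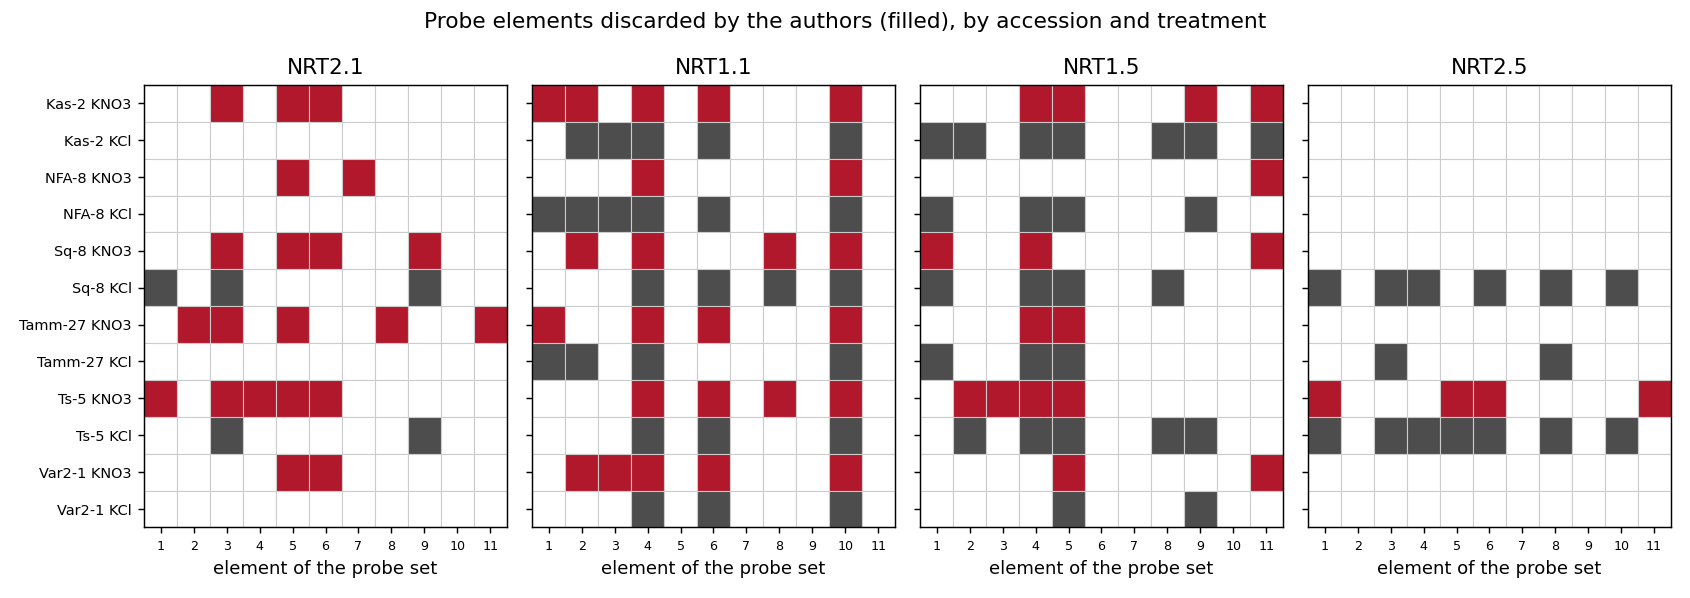
Elements of each probe set (1 to 11, in columns) that the authors discarded (filled) in the KNO3 (red) and KCl (grey) groups of the 6 accessions other than Col-0. NRT1.1 has 2 columns filled in all 12 rows, and NRT2.1 has more filled cells in the KNO3 row of every accession.

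Other genes of nitrate use were read beside the 4 transporters. NIR1, the enzyme that reduces nitrite to ammonium, was called higher after KNO3, with an averaged difference of 1.63 (SE 0.34, 3.1-fold, adjusted p = 0.0258) and a higher mean in 7 of 7 accessions. Its signal was 406.6 to 14363 (median 2491.5) after KNO3 and 217.2 to 9603 (median 518.9) after KCl. The discarded elements of NIR1 also differed between the treatments in every accession other than Col-0. NIA2, a nitrate reductase, was 0.68 higher (SE 0.23, adjusted p = 0.357) and was not called. HHO3, a repressor of the nitrogen starvation response, was called (0.84, SE 0.16, adjusted p = 0.0194, higher in 6 of 7 accessions), with a median signal of 611.6 after KNO3 and 293.1 after KCl. Of the lists set up around the 4 genes, 1 of 4 measured genes of nitrate assimilation and 1 of 9 of nitrate signalling were called higher, none lower, and 0 of 5 further nitrate transporters and 0 of 1 ammonium transporter were called. These lists hold 15, 26, 25 and 6 genes, most of which had no probe set named here. Over all 22746 probe sets, 39 were called higher and 38 lower. The list medians were 0.88, 0.32, 0.18 and 0.26, against 0.02 over all probe sets, but the median was also 0.72 for the 3 shoot photosynthesis markers and 0.42 for the 2 root markers, none of them called.

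Values of the uncalled genes with the largest averaged responses were modest. In nitrate assimilation, GLU1, a glutamate synthase, had 1.08 (SE 0.50) and GLN1.2, a glutamine synthetase, 0.11. GLU1 ran from 4.9 to 2779 in the KNO3 arrays of Var2-1, the group that holds the highest shoot marker signal. Its geometric mean was under 100 in most groups, and it enters the list median of 0.88. NRT1.3, a transporter, ran from 35.2 to 2512.9 in the same 3 arrays. In nitrate signalling, LBD37, a transcriptional repressor of nitrogen genes, had 0.68 (adjusted p = 0.169), HHO1 0.49 and HHO2 0.35. Among transporters NRT1.3 had 0.61 (SE 0.46), NPF2.10, a glucosinolate transporter of the NRT1 family, 0.48 (SE 0.18), and NPF2.3 0.18. AMT1.2, an ammonium transporter of the root endodermis and cortex, had 0.26 (SE 0.30).

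The plot of NIR1 against NRT2.1 shows some arrays high in both, but within several KNO3 groups their order differed. Replicate 3 had the highest NIR1 in the KNO3 groups of Kas-2, Ts-5, Sq-8 and Tamm-27 (4303.9, 4540.7, 3258.5 and 5389.8). The same arrays had the lowest NRT2.1 of these groups (357.4, 292.3, 454.9 and 131.4). NFA-8 KNO3 replicate 2 had the highest NRT2.1 (374.2) and the lowest NIR1 (942.4) of its group. Only in Col-0 and Var2-1 was the KNO3 array highest in NRT2.1 also highest in NIR1. Col-0 KCl replicate 2 had 6932.1 for NRT2.1 and 9603 for NIR1, above 2 of the 3 KNO3 arrays of Col-0 in both. Kas-2 KCl replicate 1 (598.8 and 2659.8) and Ts-5 KCl replicate 1 (847.8 and 2175.5) were each the highest KCl array of their accession for both genes. In Var2-1, KCl replicates 1 and 3 had NIR1 at 2055 and 1456.8, with NRT2.1 at 255.1 and 2357. On the other side, NIR1 was only 406.6 in Tamm-27 KNO3 replicate 2 and 499.6 in Var2-1 KNO3 replicate 2. NRT2.1 was 167.9 in that Tamm-27 array, the highest of its group, and 400.5 in that Var2-1 array, the lowest of its group. All arrays kept the group of their label, and why single arrays stood in the range of the other treatment was not tested. Over the 14 group means the Pearson r of NRT2.1 with NIR1 was 0.77, against 0.26 with NRT1.1, 0.27 with NRT1.5 and -0.16 with NRT2.5, as a description of means that share arrays and accessions.

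**Figure D5:**
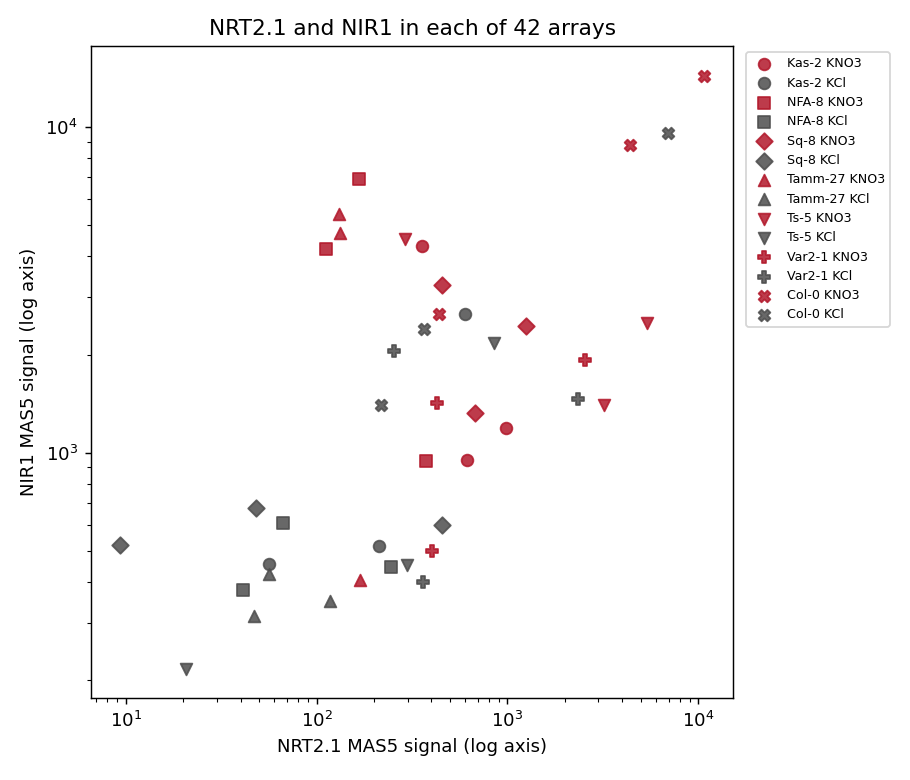
MAS5 signal of NRT2.1 (x) and NIR1 (y) in each of the 42 arrays, both on log axes, with KNO3 in red and KCl in grey and a marker per accession. Most KCl arrays lie at the lower left; Col-0 KCl replicate 2 (6932.1, 9603) lies at the upper right and Tamm-27 KNO3 replicate 2 (167.9, 406.6) at the lower left.

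The 4 genes did not share a pattern over the groups, with the highest r between any of them 0.44 (NRT1.1 and NRT2.5). Among 6590 probe sets with a mean signal of at least 100 and 1 annotated gene, those most like NRT2.1 over the 14 group means were AT3G11290 (r = 0.86), AT1G14340 (0.82) and AT4G22320 (0.80). For NRT1.1 they were AT1G55430 (0.86), AT1G34220 (0.81) and AT3G01800 (0.81), for NRT1.5 AT4G12230, AT3G16060 and AT1G14650 (0.88 each), and for NRT2.5 AT3G15680 (0.90), AT5G61330 (0.85) and AT1G25570 (0.84). None of these 12 was called in the averaged response, the nearest to it being AT1G14340 with 0.61 and an adjusted p of 0.230. They were picked as the highest r of 6590 over only 14 means, a choice that by itself favours high values. Shared regulation was not tested.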

How the data were processed

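RNA of whole roots was hybridised to Affymetrix ATH1 arrays, 42 in all, 3 for each of 14 groups taken from the sample labels. The deposited values are MAS5 signal intensities on a linear scale, made by the authors after they had discarded, for each accession and treatment, probe elements whose rank within a probe set departed from Col-0; the MAS5 version is not given in the sources used here. The deposited lists of discarded elements hold other values, the row of a probe set and the number of an element, and were counted as given. Scanner files were not used here.

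Log2(signal + 1) of the 22746 probe sets other than controls was fitted with limma 3.58.1 in R 4.3.3 on 14 group means, with a mean-variance trend, and contrasts were adjusted by the Benjamini-Hochberg method over all of them at 0.1. Tests were two-sided or moderated F-tests. The labels call replicates biological and do not name separate plants or cultures, so p-values measure the spread between these samples. The fit was tested on simulated data.

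NRT2.5 was named from the platform annotation and the other 3 genes from the probe names of the study's tables; 14016 probe sets had an entry in that annotation, and gene neighbours came from a RefSeq table. No sequences are printed, and files of sequences were not used here. The members, lists and tests were chosen with earlier results of these data known. Named genes were the 4 members, NIR1 and NIA2, the called genes of each list and up to 3 others with the largest averaged response, and for each member the 3 probe sets most correlated over group means. Alternatives covered the pseudocount, normalization, filters on low signals and on annotation, the variance model, array weights, a replicate block, RNA integrity and each array left out in turn. The settings on GAPDH and ubiquitin alone, and the one without the 3 arrays of lowest correlation, were chosen after seeing the data.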

Additional observations from a re-analysis of the deposited data

How the results depend on the processing

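Of 901 values under 16 other settings, 835 kept their direction and side of the threshold, 20 lost and 14 gained the threshold and 32 changed sign; of 2940 values with 1 array left out, 2869 kept both, 12 lost and 29 gained it and 30 changed sign. No value that changed sign was called, and the cause of these changes was not tested. Signals under 100, as for NRT2.5, and groups of 3 arrays limit the precision. NRT2.5 has no value with a filter of mean signal 100, and no member has one with the annotation filter.

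With array weights, 1 averaged response and 1 own response were called, against 0 in each with equal weights, and 4 genes of the lists, against 2. Without the 3 arrays of lowest correlation 1 own response was called. With 1 array left out, 0 to 1 averaged and 0 to 1 own responses and 2 to 3 list genes were called. Above a log2 3′ to 5′ ratio of 2, 2 accession differences were called with either set of controls. Below it, 4 (with actin) or 5 (without) of the levels against Col-0 were called, against 11. Those fits hold 3 or 4 of the 7 accessions and so test fewer differences. The list count was 1 with the annotation filter and 0 in each of the 4 fits divided by the ratio.

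The replicate numbers were not taken to pair the samples, since 8 of 21 pairs had a correlation of deviations over 0.1 (-0.126 to 0.438), although all 3 pairs did in Tamm-27 and in Var2-1 and 13 were best with their own number. The replicate block was a term for the replicate number that all accessions shared, so it cannot take up shifts that differ between accessions. With it the averaged response of NRT2.1 was 1.82 (adjusted p = 0.103), and 0 averaged and 0 own responses and 12 levels were called. A fit of the pairs within each accession is not reported here, so whether pairing would change the calls was not tested.

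Some values changed sign. Below a log2 ratio of 2, with actin and without it, they were the averaged responses of NRT1.1 (-0.23 and -0.015) and NRT1.5 (-0.29 and -0.11). They were also the own responses in Sq-8 of NRT1.1 (-0.18 and -0.25) and NRT1.5 (-0.41 and -0.035), and NRT2.5 in NFA-8 (0.11 in both). Without actin they also held NRT1.5 in Var2-1 (0.063) and the NRT2.5 level of NFA-8 (0.14). Above 2 they were NRT1.5 in Tamm-27 (-0.094), NRT2.5 in Tamm-27 (0.11) and in Ts-5 (-0.14), in both, and NRT2.1 in Var2-1 (-0.54) with actin. With the ratio as covariate NRT1.5 in Col-0 was 0.032 with actin and 0.039 without it, and without actin the NRT2.5 level of NFA-8 was 0.049. With array weights NRT1.1 was -0.017 in Kas-2 and -0.18 in Sq-8, NRT1.5 -0.075 in Tamm-27 and 0.19 in Var2-1, and the NRT2.5 level of NFA-8 0.10. With a common median NRT1.1 in Sq-8 was -0.070 and that level 0.014, and 0.012 with quantile normalization. Without the 3 arrays of lowest correlation NRT1.1 was -0.18 and NRT1.5 -0.41 in Sq-8.

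With 1 array left out, own responses ran for NRT2.1 in Var2-1 from -0.54 to 1.32, for NRT1.1 from -0.0057 to 0.56 in Col-0, -0.18 to 0.11 in Kas-2, -0.46 to 0.21 in NFA-8 and -0.25 to 0.26 in Sq-8, for NRT1.5 from -0.27 to 0.21 in Col-0, -0.41 to 0.44 in Kas-2, -0.064 to 0.91 in Sq-8, -0.46 to 0.72 in Tamm-27 and -0.66 to 0.012 in Var2-1, and for NRT2.5 from -0.30 to 0.17 in NFA-8 and -0.28 to 0.086 in Tamm-27. The NRT2.5 levels against Col-0 ran from -0.18 to 0.13 in NFA-8 and -0.073 to 0.24 in Tamm-27.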
